A study of Mus musculus with 21 samples.

Results

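Poly(A) RNA of EL4 cells, a mouse T lymphoma line of C57BL/6 origin, was sequenced with a short hairpin RNA against luciferase (shLuc, 2 libraries) or against Ctcf (shCTCF, 2 libraries). The libraries are named here by their columns in the deposited table, shLuc2, shLuc3, shCTCF2 and shCTCF3. Luciferase is not a mouse gene, so shLuc is the hairpin control, and no allele, treatment or time point distinguishes the groups in the labels. The genes described are those with a mean of 5 RPKM or more over the 4 libraries, where RPKM is the read count scaled by transcript length and library depth. This gave 8109 of the 21844 gene symbols in the table, with 1 row per symbol. No second Ctcf hairpin is told apart in the labels, so a lower Ctcf level and anything else that this hairpin does cannot be told apart. They do not say whether the 2 libraries of a group were separate cultures either. P-values thus reflect the spread among these 4 libraries alone, and that spread may be technical.

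CTCF recognises DNA through a row of zinc fingers and stops cohesin as it extrudes chromatin loops. Its bound sites lie at the borders of many chromatin domains and near many promoters. In T cells it is known for its part in thymocyte development and in the folding of antigen receptor and cytokine loci.

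Ctcf RNA lay at 49.0 and 50.9 RPKM in shLuc2 and shLuc3 and at 26.5 and 26.4 RPKM in shCTCF2 and shCTCF3. The groups did not overlap, and the fall was 1.89-fold (log2 change −0.89, SE 0.08, adjusted p = 0.0075 in limma with Benjamini-Hochberg adjustment over 9898 genes). The level was alike in both shCTCF libraries. With only shLuc3 or only shLuc2 as control the change was −0.92 or −0.86, each short of the threshold (adjusted p = 0.15 in limma). Every log2 change given is the shCTCF mean minus the shLuc mean of log2(RPKM + 1). On this scale the change of genes with low values is understated.

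Depth was moderate, with divisors of 4346709 to 6133046 reads implied by the RPKM values. The members rested on a median of 1256 reads over the 4 libraries, and 58 of the 6058 members with recovered reads had fewer than 50. Of 15 T cell markers in the table, 12 were members, led by the transcription factor Tcf7 and the surface glycoprotein Thy1, while the co-receptor gene Cd8a was listed at 0 in all 4 libraries. The summed level of the T cell markers was 2885 and 2777 RPKM in the shLuc and 2504 and 2468 RPKM in the shCTCF libraries. Of the 10 B cell markers, none was a member and several, among them Ms4a1, Pax5 and Vpreb1, were listed at 0. Their sum was 4.73 and 4.50 RPKM in the shLuc and 7.41 and 6.74 RPKM in the shCTCF libraries. Of the 15 myeloid markers 1 was a member (Fcer1g), and 7, among them Lyz1, Cd14 and Cebpa, were listed at 0. That list summed to 35.9 and 46.6 RPKM in the shLuc and 45.8 and 48.1 RPKM in the shCTCF libraries. Thy1, also on the fibroblast list, was counted only with the T cell markers. Apart from Thy1, no erythroid, fibroblast, embryonic stem cell or cytotoxic marker reached 5 RPKM. The mast cell list held 1 member, Cpa3, and 3 of its 7 genes were listed at 0.

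In the fit used here, called genes were few and about evenly split in direction, and both traits varied with the fit. At an adjusted p below 0.05 in limma, 51 members rose (0.629% of the 8109) and 48 fell (0.592%). Over all 9898 genes fitted the shares were 0.697% and 0.596%. Another measure of how far the groups stand apart is whether their libraries overlap. Both shCTCF libraries lay on 1 side of both shLuc libraries for 1918 members that were higher (23.7%) and 1626 that were lower (20.1%), against 24.1% and 19.9% of all genes fitted. All 99 called members were among those without overlap, so a lack of overlap adds nothing to a call. At an unadjusted p below 0.05 there were 1122 members (13.8%). An exact permutation test of a single gene with 2 libraries against 2 cannot go below p = 0.333, so calls rest on the spread that limma pools over genes. The number of calls depended on the fit: without shLuc2 limma called 0 members (821 at an unadjusted p below 0.05), without shLuc3 2 rises and 0 falls, and without the filter on low values 0, whereas limma-voom on recovered reads gave 161 rises and 149 falls. None of the 99 called members was called without shLuc2, without shLuc3 or without the filter, and 35 and 29 were called without shCTCF2 and without shCTCF3.

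In size, the median change was close to the median difference between libraries of 1 group. The median absolute log2 difference was 0.11 between the shLuc libraries, 0.10 between the shCTCF libraries and 0.09 between the groups. The change between groups compares means of 2 libraries, which vary less than single libraries. These medians thus do not show whether most members changed. The median log2 change of all members was 0.01, with quartiles of −0.08 and 0.11. Called members had a median absolute log2 change of 0.71, and the smallest was 0.42. A log2 change of 1 or more in size occurred in 23 members, of which 14 were called. The other 9 were all small nucleolar RNA or microRNA precursor rows with few reads.

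Calls occurred at every expression level. Among members of 5 to 10 RPKM, 12 rose and 8 fell of 1454 (1.38%). The shares called were 1.67% of 2101 members at 10 to 20 RPKM and 1.03% of 2721 at 20 to 50 RPKM. At 50 to 100 RPKM 5 rose and 5 fell of 1089 members, and at 100 RPKM or more 3 rose and 3 fell of 744. The median absolute log2 change of the called members was 0.83 in the lowest of these ranges and 0.43 in the highest.

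**Figure D1:**
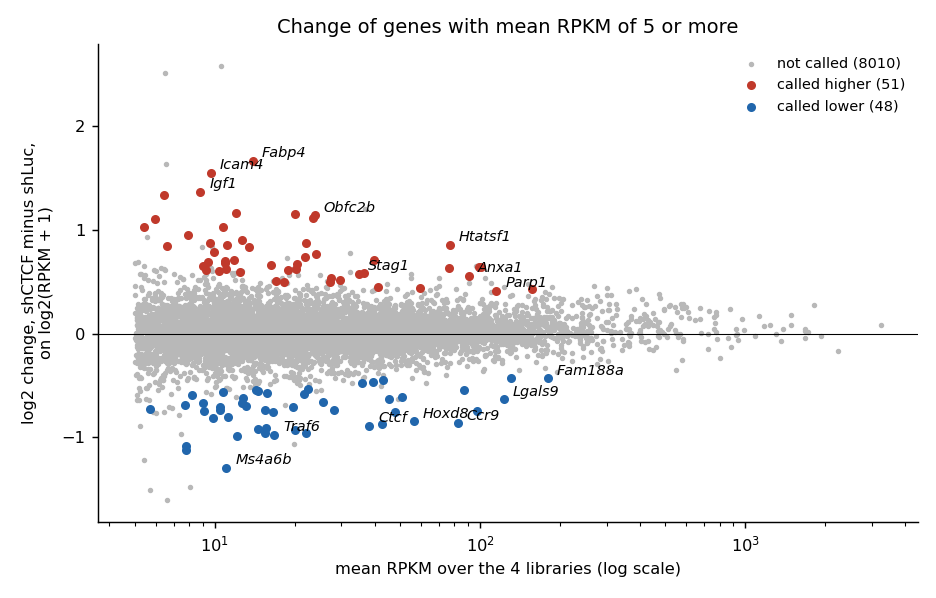
Each point is 1 of the 8109 genes, with its mean RPKM over the 4 libraries on a log axis and its log2 change (shCTCF minus shLuc on log2(RPKM + 1)) on the vertical axis; red points rose (51), blue points fell (48) and grey points were not called. The cloud is centred near 0 and narrows toward high levels, and called genes lie on both sides of it across the range.

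Among the genes that fell were receptors by which T cells home and adhere. Ccr9, the receptor for the thymic and intestinal chemokine CCL25, lay at 105 and 109 RPKM in the shLuc and 54.9 and 61.1 RPKM in the shCTCF libraries, a 1.84-fold fall (log2 change −0.87, SE 0.08, adjusted p = 0.0075 in limma). Ccr4, a receptor for CCL17 and CCL22 on Th2 and skin-homing T cells, lay at 34.5 and 36.4 against 22 and 19.7 RPKM (log2 change −0.74, SE 0.09, adjusted p = 0.011 in limma). Like all called falls, both genes were lower in each shCTCF library than in either shLuc library, Ccr4 by 1.70-fold. Itgal, the alpha chain of the integrin LFA-1, fell less, from 50.1 and 49.6 to 37.4 and 35.2 RPKM (1.37-fold). Rassf5, a Rap1 effector that activates LFA-1, stood at 101 and 106 RPKM in the shLuc and 70.5 RPKM in each shCTCF library (log2 change −0.55, SE 0.08, adjusted p = 0.016 in limma).

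Other lymphocyte surface and signalling genes fell with them. Ms4a6b, one of the MS4A membrane proteins, had the largest fall, from 14.9 and 17.4 to 6.27 and 5.65 RPKM (2.71-fold). Traf6, a ubiquitin ligase that passes signals from Toll-like and interleukin-1 receptors to NF-kB, lay at 22.4 and 22.8 against 10.8 and 11.1 RPKM (log2 change −0.98, SE 0.09, adjusted p = 0.0075 in limma). The Traf6 levels of the libraries of a group were far closer to each other than to those of the other group. Il21r, the receptor for interleukin 21, lay at 28.5 and 24.8 against 13.9 and 13 RPKM. Fyb, an adaptor that couples the T cell receptor to integrins, lay at 53 and 58.1 against 36.4 and 34.5 RPKM. Cd52, a small glycoprotein of the lymphocyte surface, lay at 29.6 and 33.4 against 20.1 and 19 RPKM. As in all 99 called members, the groups did not overlap in these genes. Nt5e, the ectoenzyme CD73 that makes adenosine, and Samsn1, a lymphocyte adaptor, also fell, with log2 changes of −0.70 and −0.47.

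Transcription factors were also among the falls. Fos, a subunit of AP-1, lay at 9.85 and 12.1 RPKM in the shLuc and 4.51 and 4.72 RPKM in the shCTCF libraries, a 2.38-fold fall (log2 change −1.09, SE 0.13, adjusted p = 0.0094 in limma). Fos is a member only through its shLuc level, as its shCTCF mean was 4.61 RPKM. It was the only called gene of the 17 members on the AP-1 and immediate-early list, of which 10 had a positive and 7 a negative log2 change. Bcl11b, required for T lineage commitment, lay at 25.1 and 27.2 against 16.4 and 17.9 RPKM (log2 change −0.58, SE 0.10, adjusted p = 0.035 in limma). Etv5, an ETS factor, lay at 15.6 and 16 against 9.51 and 9.66 RPKM. Zfp777, a zinc-finger gene, lay at 13.1 and 12.8 against 8.43 and 8.47 RPKM. For both, the difference between the groups was many times that between libraries of a group. The list of 48 members that holds Etv5 had 20 positive and 28 negative log2 changes. On it Ehf was called as a rise, at 7.92 and 9.03 against 16.2 and 17.3 RPKM. The Zfp zinc-finger list of 150 members held 1 called rise beside Zfp777, with 84 positive and 66 negative members.

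The remaining falls reached several compartments of the cell. Ppa2, the mitochondrial inorganic pyrophosphatase, lay at 19.7 and 21.7 against 9.50 and 10.7 RPKM (2.04-fold lower). Mrpl23, a protein of the large mitochondrial ribosomal subunit, lay at 19.7 and 19.1 against 10.7 and 8.94 RPKM. Bola3, a factor for mitochondrial iron-sulfur clusters, lay at 60.8 and 59.7 against 36.0 and 34.3 RPKM (log2 change −0.76, SE 0.08, adjusted p = 0.0091 in limma). These 3 nuclear genes of mitochondrial proteins were lower in both shCTCF libraries, as all called falls were. Tuba8, an alpha-tubulin isotype, fell from 30.4 and 28.4 to 15.7 and 13.4 RPKM, and Syt13, of the synaptotagmin family, from 57.6 and 53.3 to 30.9 and 28.8 RPKM. Cpa3, a carboxypeptidase known from mast cell granules, was at 116 and 128 against 71.3 and 73.6 RPKM, and the galectin gene Lgals9 at 153 and 147 against 99.2 and 93.1 RPKM. The other mast cell markers were at or near 0, as given above. The most highly expressed gene that fell was Fam188a, at 200.2 and 213 RPKM in the shLuc and 153 and 152 RPKM in the shCTCF libraries (log2 change −0.43, SE 0.07, adjusted p = 0.041 in limma).

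The largest rises were in Fabp4, Icam4 and Igf1, followed by the joined row Fbxl13+Lrrc17 and 2 small nucleolar RNAs that are described further on. Icam4, Igf1 and Fbxl13+Lrrc17 had shLuc means below 5 RPKM and are members only through their shCTCF levels. Fabp4, which carries fatty acids in adipocytes and macrophages, lay at 6.85 and 5.34 RPKM in the shLuc and 17.6 and 26 RPKM in the shCTCF libraries. It had the largest rise, 3.57-fold (log2 change 1.67, SE 0.18, adjusted p = 0.0091 in limma), and the shCTCF libraries differed from each other more than the shLuc libraries did. Its relative Fabp5 lay at 29.9 and 28.2 against 44.4 and 43.7 RPKM (log2 change 0.59, SE 0.08, adjusted p = 0.018 in limma). Icam4, an adhesion molecule first described on red cells, lay at 4.00 and 4.85 against 14.5 and 15.3 RPKM (3.36-fold higher). Igf1, insulin-like growth factor, lay at 3.68 and 5.35 against 13.7 and 12.5 RPKM (2.90-fold higher). In each of these genes, as in every called rise, both shCTCF libraries lay above both shLuc libraries. Stc1, a secreted glycoprotein, and Ecm1, an extracellular matrix protein, rose 1.62-fold and 1.83-fold.

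Genes known from lymphocytes were also among the rises. Cblb, a ubiquitin ligase that restrains T cell receptor signals, lay at 7.09 RPKM in each shLuc library and at 11.6 and 11.2 RPKM in the shCTCF libraries (log2 change 0.62, SE 0.11, adjusted p = 0.041 in limma). Ly6a, the surface protein Sca-1 of activated T cells, lay at 63.4 and 56.3 against 95.9 and 90.7 RPKM. Rgs2, which shortens G protein signals, lay at 4.31 and 4.55 against 7.80 and 9.85 RPKM. As in all called members, the groups did not overlap in Cblb, Ly6a and Rgs2, and Rgs2 is a member only through its shCTCF level. Itm2a, a membrane protein of activated T cells, lay at 77.4 and 79.2 against 127 and 118 RPKM, and Anxa1, a phospholipid-binding annexin, at 70.3 and 76.1 against 108 RPKM in each shCTCF library. Ada, adenosine deaminase, rose from 15.1 and 14.1 to 24.8 and 21.2 RPKM. Mx1, an interferon-induced antiviral GTPase, was the only called gene of 26 members on the interferon and nucleic acid sensing list, at 7.39 and 7.93 against 14.9 and 14.4 RPKM (log2 change 0.86, SE 0.10, adjusted p = 0.0095 in limma).

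Genes that act on DNA, RNA and protein turnover were also among the rises. Obfc2b, a single-stranded DNA-binding protein of the damage response, lay at 13.8 and 15.2 against 32.1 and 34.1 RPKM (2.29-fold, log2 change 1.14, SE 0.09, adjusted p = 0.0075 in limma). Parp1, the poly(ADP-ribose) polymerase that marks DNA breaks, lay at 101 and 96.4 against 132 RPKM in each shCTCF library. Mnd1, a meiotic recombination factor, lay at 3.06 and 3.73 against 7.11 and 9.92 RPKM on 111 reads in all. Of these, Parp1 was the most abundant and Mnd1, a member only through its shCTCF level, the least. Htatsf1, a splicing and elongation factor, lay at 52.7 and 56.3 against 93.4 and 106 RPKM (1.83-fold higher). The deubiquitinases Usp42 and Usp51 rose 1.43-fold and 1.65-fold, and Kctd6, an adaptor of cullin 3 ligases, rose 1.97-fold. Mrps16, of the small mitochondrial ribosomal subunit, lay at 74.5 and 79.5 against 111 and 132 RPKM.

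**Figure D2:**
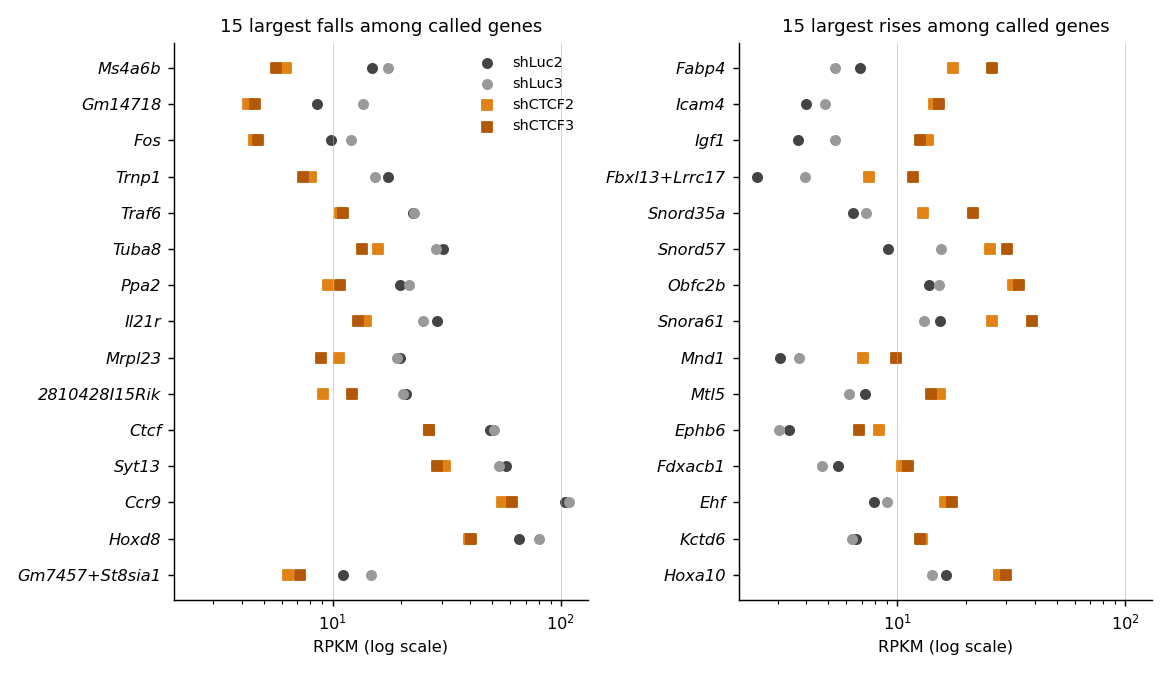
RPKM on a log axis for the 15 largest falls (left) and the 15 largest rises (right) among called genes, with circles for shLuc and squares for the shCTCF libraries. In every gene drawn the squares lie on 1 side of the circles, as they do in all 99 called members. Ccr9, with the highest levels on the left, moves from 105 and 109 to 54.9 and 61.1 RPKM.

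Some of the rises rest on few reads. In shLuc2 and shLuc3, Fabp4 had 23 and 21 recovered reads and Icam4 had 19 and 27. Snord35a, Snord57 and Snora61, small nucleolar RNAs that guide RNA modification, had 23, 27 and 31 recovered reads over the 4 libraries and log2 changes of 1.17, 1.16 and 1.11. Such RNAs lie within host genes, and the sources used here do not give whether the counting used strand. Hist1h2af, a replication-dependent histone gene with near-identical copies, rose by 0.50 on the log2 scale on 142 reads, and its reads could be split among copies. Among the 99 called members, 5 stood in rows that join several genes, such as Fbxl13+Lrrc17, and their change cannot be assigned to 1 of those genes.

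Promoters were searched for the core consensus of CTCF sites. The promoter of Obfc2b is shown because, among the called genes whose promoter was matched, it alone held this consensus. RefSeq promoters on GRCm38.p6, from 250 bases before to 50 bases after the gene start, were matched to 5924 members by transcript or symbol, and both strands were searched for the 12-base consensus with its usual alternative letters. It occurred in 0.557% of all 32851 promoters of that table and in 0.912% of the members' promoters. Of the promoters of called genes it occurred in 1 of 34 that rose and 0 of 36 that fell, against 53 of 5854 members not called. In all 4 spellings were searched, each after the calls were known, and the counts moved with the spelling. CCNCNAGNNGGC occurred in 3 of 34 promoters of genes that rose, 3 of 36 of those that fell and 4.94% of the 5854 not called (2.44% of all promoters). CNAGGNGGC, the core alone, occurred in 9 of 34, 3 of 36 and 15.1% (8.38% of all), and CCACNAGGGGGC in 1 of 34, 0 of 36 and 0.307% (0.198% of all). None of these counts was tested. A match describes letters and is not a measured site, and 0 matches say only that these letters are not in the window. The window of 100 bases in Obfc2b, introduced above, runs 5′ to 3′ on the gene's strand, with the reverse complement of the consensus in capitals.
Obfc2b, GRCm38.p6 chr10:128409978-128410077, minus strand: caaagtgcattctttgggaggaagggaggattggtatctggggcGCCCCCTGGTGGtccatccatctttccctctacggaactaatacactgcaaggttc

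The match in Obfc2b began 183 bases before the gene start. Over the 54 members with a match the median log2 change was −0.05, and over the others 0.01.

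To see how broad classes moved, members were sorted into 89 classes by function, of which 87 held 10 or more members. These classes held 4305 members and 61 of the called genes, and a gene may stand in more than 1 class. Of the 87 classes, 51 held no called gene, 66 had a median log2 change under 0.05 in size and 9 had one of 0.1 or more. Only 0.629% of all members were called as rises and 0.592% as falls, so a class without a call says little. The class medians are descriptions, to be read beside the median of 0.01 over all members.

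**Figure D3:**
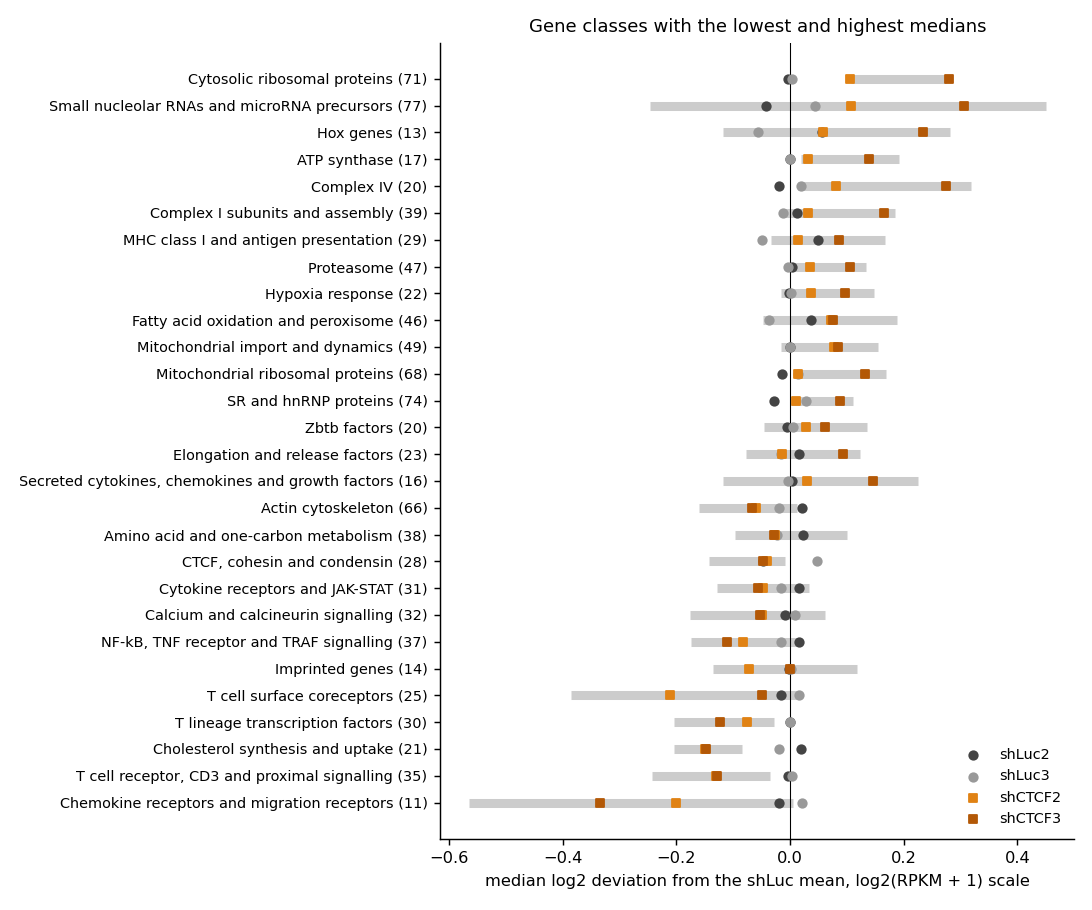
Median log2 deviation from the shLuc mean for each library (circles shLuc, squares shCTCF) in the 12 classes with the lowest and the 16 with the highest medians among classes of 10 or more members; grey bars span the quartiles of the members' log2 changes and numbers in brackets are members. In cytosolic ribosomal protein genes shCTCF2 sits at 0.11 and shCTCF3 at 0.28, whereas in T cell receptor signalling genes both sit at −0.13.

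Classes of T cell genes had negative medians. Of 35 members in T cell receptor, CD3 and proximal signalling, 30 had a negative log2 change, and the libraries did not overlap for 22 that were lower (62.9%) and 2 that were higher (5.71%), against 20.1% and 23.7% of all members. The median was −0.15, and the deviations from the shLuc mean were −0.13 in each shCTCF library. Fyb fell and Cblb rose, and the other 33 members did not pass. Lck, the kinase that starts the signal, lay at 152 and 142 against 128 and 122.9 RPKM (log2 change −0.23), and its partner kinase Zap70 at 133 and 119 against 111 and 104 RPKM (−0.22). Rasgrp1, the exchange factor that activates Ras, lay at 154 and 160 against 127 and 119 RPKM (−0.35, adjusted p = 0.085 in limma). The groups did not overlap in these 3 genes, although none passed. For Cd3e, a CD3 chain of the receptor complex itself, the groups overlapped. Cd3e lay at 136 and 166 against 145 and 158 RPKM, a log2 change of 0.01 whose sign turned under quantile normalization and the median shift. Lck, Zap70, Rasgrp1 and Cd3e were chosen after their values were seen.

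Chemokine and migration receptors had a median of −0.27 over 11 members, 7 negative and 4 positive, and the called members include Ccr9 and Ccr4, which fell. Counting only the 8 whose transcript length was recovered, the class stood at −0.03, and in limma-voom on recovered reads at −0.026. T cell surface coreceptors had a median of −0.10 over 25 members, with 11 lower (44%) and 3 higher (12%) without overlap, against 20.1% and 23.7% of all members. Their median deviation was −0.21 in shCTCF2 and −0.05 in shCTCF3, so most of that median came from 1 library. Its called members include Cd52, which fell, and Ly6a, which rose. Cd28, the costimulatory receptor, lay at 93.2 and 113 against 83.8 and 86.7 RPKM without passing.

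T lineage transcription factors had a median of −0.11 over 30 members, of which 24 were negative and 1 (Bcl11b) was called. Without overlap 15 were lower (50%) and 4 higher (13.3%), against 20.1% and 23.7% of all members. Over the 18 members with a recovered length the median was −0.058. Lef1, a partner of beta-catenin in early T cells, lay at 15.2 and 18.1 against 12.8 and 10.9 RPKM (log2 change −0.46, adjusted p = 0.14 in limma). Ets1, an ETS factor of lymphocytes, lay at 68.3 and 66.7 against 54.8 and 51.9 RPKM (−0.33). Ikzf1, the zinc-finger factor Ikaros, lay at 472 and 473 against 428 and 418 RPKM (−0.16). In these 3 genes, chosen after their values were seen, both shCTCF libraries were below both shLuc libraries, and none passed. NF-kB, TNF receptor and TRAF signalling genes had a median of −0.08 over 37 members, of which 26 were negative and Traf6 was called.

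Cholesterol synthesis and uptake genes had a negative median with no called member. Of 21 members 19 were negative, 9 were lower (42.9%) and 2 higher (9.52%) without overlap, against 20.1% and 23.7% of all members, and the median was −0.14, with −0.15 in each shCTCF library. Srebf2, the transcription factor that drives this pathway, lay at 136 and 128 against 117 and 104 RPKM (log2 change −0.26, SE 0.09, adjusted p = 0.22 in limma). Scap, the sterol sensor that escorts it to the Golgi, lay at 40.7 and 36.0 against 30.6 and 28.2 RPKM (−0.37), and Insig1, which retains both in the endoplasmic reticulum, at 35.2 and 39.0 against 30.0 and 31.0 RPKM (−0.27). In none of these 3 regulators did the groups overlap, although none passed. Scap and Insig1 were chosen after their values were seen. Fatty acid and phospholipid synthesis genes had a median of −0.01 over 29 members.

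Classes of the translation and energy machinery differed in their medians. Translation initiation factors, with 22 positive and 24 negative members, and aminoacyl-tRNA synthetases had medians of −0.0016 and −0.01, and TCA cycle genes and complexes II and III had medians of 0.01 and 0.02. Of 71 cytosolic ribosomal protein genes 66 were positive, 51 were higher (71.8%) and 1 lower (1.41%) without overlap, against 23.7% and 20.1% of all members, and none was called. Rplp1, a stalk protein of the large subunit, lay at 1664 and 1625 against 1860 and 2140 RPKM (log2 change 0.28, SE 0.09, adjusted p = 0.22 in limma). Rpl8 lay at 1497 and 1391 against 1503 and 1559 RPKM (0.09), and its sign turned under quantile normalization. Mitochondrial ribosomal protein genes had a median of 0.07 over 68 members, of which Mrps16 rose and Mrpl23 fell. Respiratory complex I, complex IV and ATP synthase genes had medians of 0.09, 0.14 and 0.14 over 39, 20 and 17 members. Atp5k, a small subunit of ATP synthase, was the called gene among them, at 129 and 138 against 177 and 185 RPKM (log2 change 0.43, SE 0.08, adjusted p = 0.042 in limma). Cox8a, a complex IV subunit, lay at 534 and 517 against 566 and 723 RPKM, with most of the difference in shCTCF3. Proteasome genes had a median of 0.08 over 47 members. Of these, Shfm1, the smallest lid subunit, lay at 155 and 161 against 199 and 235 RPKM (log2 change 0.45, adjusted p = 0.069 in limma).

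The shorter a transcript, the higher was the median change, also outside these classes. Among members whose row holds 1 transcript and whose length could be recovered (5584), the 168 under 500 nt had a median log2 change of 0.17, at 0.09 in shCTCF2 and 0.31 in shCTCF3. The median was 0.16 over the 152 of them that are not cytosolic ribosomal protein genes. It was 0.15 over the 59 that are also outside the respiratory complex, ATP synthase, mitochondrial ribosome, proteasome and small RNA classes. With no class left out, the median was 0.14 for 269 members of 500 to 800 nt. It was 0.03 for 1227 of 1200 to 2000 nt and −0.02 for 758 of 5000 nt or more. With the trend over length removed in each library, the median of cytosolic ribosomal protein genes with a length went from 0.17 to 0.07. That of complex I genes went from 0.08 to 0.00, of ATP synthase genes from 0.14 to 0.02, of proteasome genes from 0.08 to 0.02, and of mitochondrial ribosomal protein genes from 0.07 to 0.01. In complex IV genes 0.07 of 0.14 remained. Both medians of each pair cover the members with a recovered length, 82.4% to 94.9% of each class. The part of RNA integrity or library preparation in these differences was not tested. For the T cell and cholesterol classes fewer than 80% of the members had a recovered length (60.0% to 72.7%), so the same check is void there.

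**Figure D4:**
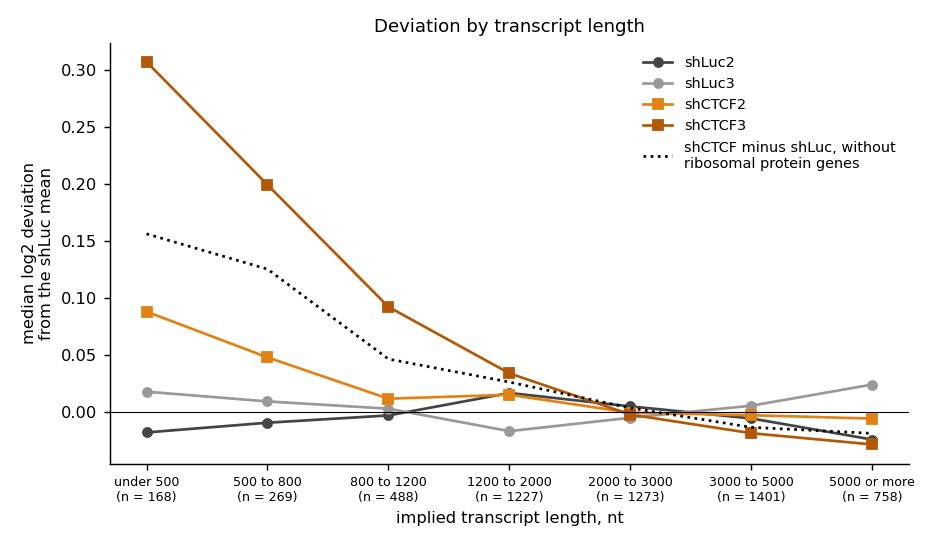
Median log2 deviation from the shLuc mean in each library by implied transcript length in nt, for 5584 genes whose row holds 1 transcript; the dotted line is the shCTCF minus shLuc median without ribosomal protein genes. The shCTCF3 line falls from 0.31 under 500 nt to −0.03 at 5000 nt or more, and the shCTCF2 line from 0.09 to −0.01.

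Chromatin genes gave single calls in opposite directions. Of 28 members in CTCF, cohesin and condensin, Ctcf fell, Stag1 rose and 22 were negative. Stag1, which encodes a STAG subunit of cohesin, lay at 26.9 and 28.8 against 41.8 and 42.3 RPKM (log2 change 0.58, SE 0.08, adjusted p = 0.020 in limma), while the core subunit gene Smc1a lay at 77.7 and 76.9 against 77.9 and 84.1 RPKM. The class median was −0.05, and 0.02 without shLuc3.

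Hox genes, homeodomain factors kept in 4 clusters that CTCF is known to partition, held 13 members. Hoxa10 lay at 16.4 and 14.3 against 28.0 and 29.9 RPKM (1.89-fold higher), and Hoxa13 at 9.77 and 9.10 against 17.9 and 17.2 RPKM (1.86-fold higher). Hoxd8 fell from 65.4 and 80.3 to 39.6 and 40.2 RPKM (1.83-fold). The shCTCF levels of Hoxd8 remained above those of Hoxa10 and Hoxa13. The other 10 members did not pass. Of these, Hoxb6 lay at 10.1 and 5.92 against 11.3 and 12.1 RPKM and Hoxc6 at 10.3 and 14.4 against 13.4 and 15.9 RPKM, where the shLuc libraries differed from each other by more than the group means did (both chosen after their values were seen). The class median was 0.15, at 0.06 in shCTCF2 and 0.23 in shCTCF3, and 0.03 without shLuc2. Imprinted genes, several of which are known CTCF targets, had no called gene among 14 members. Of all members 0.629% rose and 0.592% fell, so 0 calls in a class of this size say little about it.

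The classes on which a proliferating line depends had small medians. DNA replication and G1/S genes had a median of −0.03 over 72 members and mitosis and G2/M genes one of 0.00 over 78. Neither held a called gene, beside shares of 0.629% rises and 0.592% falls over all members. Mcm6, a subunit of the replicative helicase, lay at 260 and 260 against 251 and 242 RPKM, and Mki67, the proliferation antigen, at 244 and 266 against 247 and 249 RPKM. The median was 0.04 over 27 glycolysis and pentose phosphate genes, 0.04 over 30 genes of p53 and its targets, and −0.01 over 37 apoptosis regulators. None of these classes held a called gene. In the p53 class 13 members were higher (43.3%) and 1 lower (3.33%) without overlap, against 23.7% and 20.1% of all members. Bax, the pro-apoptotic pore protein, lay at 104 and 93.1 against 119 and 124 RPKM (log2 change 0.30, adjusted p = 0.16 in limma; chosen after its values were seen). SR and hnRNP proteins, which bind nascent RNA, were positive in 55 of 74 members with a median of 0.05, and Hnrnpa2b1 lay at 645 and 701 against 718 and 855 RPKM. Actin cytoskeleton genes were negative in 48 of 66 members with a median of −0.04, and Actb lay at 2402 and 2346 against 2108 and 2125 RPKM. No member of these last 2 classes passed.

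The 4 members whose deviations over the libraries were nearest to those of Ctcf, by the sum of squared differences over the 4 libraries, were Traf6 (0.0096), Ccr9 (0.013), Syt13 (0.018) and Bola3 (0.022). The deviations of Ctcf in shCTCF2 and shCTCF3 were −0.89 and −0.89, and those of Traf6 were −0.999 and −0.961.

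At the limit of 5 RPKM the members just inside were Stx17 (mean 5.01 RPKM), Rarg (5.01) and LOC106740 (5.01), with 1-library levels as low as 2.91 and 2.46 RPKM for Rarg and LOC106740. Just outside lay Nek1, Zfp952 and March9, with means of 5.00, 4.99 and 4.99 RPKM. The authors' deposited table of 435 changed rows numbers its libraries 1 and 2 in place of 2 and 3, but holds the same 4 values as the full table in all 435 rows. By its own fold changes the authors' deposited table lists 337 members, 147 as higher and 190 as lower. Of the 99 members called here, the authors' deposited table lists 92 and lacks 7.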

How the data were processed

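RNA was measured in 4 EL4 libraries, 2 with the shLuc and 2 with the shCTCF hairpin, grouped by sample titles; the other 17 of 21 samples are not analysed here. Reads were aligned with Bowtie2 to mm9, per the submitters' processing notes; which program counted reads, and on which annotation release, is not stated in those notes. RPKM was deposited by the authors in a table of 22119 rows, per the file headers. The authors' deposited table of changed genes adds a log2 fold change and an FDR (an adjusted p-value), per the file headers, and is used only for its listing. No per-sample column was left out.

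For each symbol the row with the highest mean was kept. The 9898 genes whose mean RPKM reached 1 entered limma (version 3.58.1, R 4.3.3; lmFit, then eBayes with trend) as log2(RPKM + 1), with Benjamini-Hochberg adjustment over all of them and a threshold of 0.05, and members are those with 5 or more. Rows with 1 transcript were searched for whole read numbers and a whole length (relative tolerance 2e-09). Of 7035 such rows 98.4% gave both, against 21.1% of 2905 rows that join transcripts. Where several read numbers fitted, the smallest with a whole length was taken, which can understate the reads. The limma fit was tested on simulated data.

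The genes named are Ctcf, the 15 largest rises and falls among called members, the 10 called members with the highest levels, up to 4 called members per class, up to 2 of the most abundant members in classes without calls, 3 genes on each side of 5 RPKM, the 4 nearest to Ctcf, and those said to be chosen after their values were seen. Members, classes and lists were chosen with earlier results of these data known. Alternatives changed the pseudocount, filter, scaling, variance model, rows, reads, replicate block and libraries; the promoter motifs, the length trend, the minimum of 50 reads and the rows with a length were added after the data were seen. Some genes are not reported here.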

Additional observations from a re-analysis of the deposited data

How the results depend on the processing

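With 2 libraries a group, leaving 1 out leaves a lone library that is assumed to vary like the others, and calls then ranged from 0 to 42 for rises and 0 to 25 for falls. The lowest counts came without shLuc2 (0 rises, 0 falls, 821 members at an unadjusted p below 0.05 in limma) and without shLuc3 (2 and 0, 909 unadjusted). Without shCTCF2 they were 42 and 21, and without shCTCF3 14 and 25. No filter on low values gave 0 and 0 in limma (1043 unadjusted; Ctcf −0.89, adjusted p = 0.22), against 67 and 70 with only genes of 5 RPKM or more in the fit. Without a trend there were 16 and 17, with robust fitting 71 and 74, and with limma-voom on recovered reads 161 and 149. Quantile normalization gave 39 and 46, and a shift to the same median 58 and 64. With the length trend removed 39 rose and 65 fell, against 39 and 38 over the same rows. Of the 99 called members 33 were called without a trend, 84 under quantile normalization, 35 without shCTCF2, 29 without shCTCF3 and 0 without shLuc2, without shLuc3 or without the filter. Ctcf was −0.92 to −0.86 over the fits without a library.

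The numbers 2 and 3 in the library names form only 2 pairs, and the differences between libraries correlated by 0.18 over members. With the replicate block 248 rose and 182 fell.

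Class medians moved as follows. T cell receptor signalling was −0.15 with a pseudocount of 0.1, −0.17 under quantile normalization, −0.16 after the median shift, and −0.13 at the highest without a library (lowest −0.15). The length setting keeps only members with a recovered length. Over those members ribosomal proteins were at 0.072 with the trend removed and 0.17 before, proteasome genes at 0.015 and 0.081, complex I at 0.00030 and 0.082, ATP synthase at 0.019 and 0.14, and small nucleolar RNA and microRNA rows at −0.036 and 0.16. In 4 more classes fewer than 80% of members had a length, so this check is void: T cell receptor genes were at −0.14 (−0.15 before removal), T lineage factors −0.070 (−0.058), chemokine receptors −0.036 (−0.027) and cholesterol genes −0.097 (−0.099). In the last 3 the median moved mainly with the loss of members, before the trend was removed. With limma-voom, which also drops rows without recovered reads, chemokine receptors were at −0.026 and cholesterol genes at −0.12, and under quantile normalization ATP synthase at 0.073. Without a library the ranges were −0.21 to −0.049 (coreceptors), −0.14 to −0.075 (T lineage), −0.33 to −0.18 (chemokine receptors), −0.16 to −0.094 (cholesterol), −0.11 to 0.022 (CTCF and cohesin), 0.032 to 0.23 (Hox), 0.11 to 0.28 (cytosolic ribosome), 0.015 to 0.13 (mitochondrial ribosome), 0.036 to 0.11 (proteasome), 0.032 to 0.16 (complex I), 0.081 to 0.28 (complex IV), 0.031 to 0.14 (ATP synthase) and 0.00029 to 0.31 (small nucleolar RNAs). The cause of the other shifts was not tested. Uncalled genes near 0 turned sign. Rpl8 was −0.037 under quantile normalization and −0.0031 with the length trend removed. Cd3e was −0.029, −0.0023 and −0.026 under quantile normalization, the median shift and the length setting, and −0.13 to 0.15 without a library (−0.13 without shLuc2, −0.051 without shCTCF3). Mki67 was −0.10 to 0.019 without a library.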
